A study of Mus musculus with 8 samples.

Results

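The genes described are 9 C-type lectin receptors of myeloid cells, namely Clec4a1, Clec4a2, Clec4a3, Clec4d, Clec4e, Clec4n, Clec5a, Clec7a and Clec12a. They were chosen by name, as the rows of the deposited expression table that carry these symbols, and they were 9 of the 23084 genes listed. Each symbol occurred in 1 row.

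RNA sequencing was carried out on myeloid cells sorted from the spleens of C57BL/6 mice aged 6 to 8 weeks. There were 4 groups with 2 samples in each. The wt groups were CD11b+Ly6C+ cells, the monocytic subset, and CD11b+Ly6G+ cells, the granulocytic subset. The other groups were the same subsets from LmnaMyeKO mice, in which a floxed Lmna, the gene of the nuclear lamina proteins lamin A and C, was deleted with LysM-Cre. This Cre is driven by the Lyz2 locus, which is active in monocytes, macrophages and granulocytes, so it was not aimed at a single subset. Whether the wt mice carried the floxed allele or the Cre is not given in the sources used here. Sample titles were used to tell the subsets apart, because the cell marker label named CD11b+Ly6C+ for all 8 samples.

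The value used for each gene was the authors' mean signal, that is, counts divided by size factors and averaged over libraries. It is a pooled value. Levels in single samples, their spread and the depth of each sample were not analysed here, so no effect of genotype or of subset is given, and genes that stand next to each other in an order of levels cannot be said to differ. In bulk RNA of this kind, fewer cells of a type and less RNA per cell cannot be told apart. Ratios between genes were taken after division by transcript length in kilobases (kb), as the median length of a gene's protein-coding transcripts. Places of the mean itself among all genes, and the limits it was held to, carry no correction for length.

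The libraries behind the mean were not named, and the lowest means were examined for the worth of a single read in each library. All 109 distinct means under 0.4 could be written as whole-number sums of 8 steps between 0.0653 and 0.157, within 3e-08 per read. Each then took in reads from at least 2 libraries, but the search built the steps by taking low means as reads in 2 libraries. The reciprocal of the geometric mean of the steps was 8.05. The size factors that these steps imply ran from 0.796 to 1.91, with the second highest at 1.05. The number of steps was the number of samples in the series, so the mean appeared to be taken over both subsets and both genotypes, but no step could be assigned to a group. Another set of 8 numbers, from 0.0539 to 0.0916 with a reciprocal geometric mean of 14.4, gave all 109 means as well, but would have needed 1 library at or above all the others in every mean.

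C-type lectin receptors of this kind are single-pass membrane proteins whose outer domain binds sugars or lipids of microbes, or molecules released by damaged cells. Activating receptors signal through a tyrosine motif that SRC family kinases phosphorylate and that then recruits the kinase Syk, upstream of Card9, Bcl10 and Malt1 and of NF-κB. Some carry the motif in their own tail and others borrow it from an adaptor, whereas inhibitory receptors carry an immunoreceptor tyrosine-based inhibitory motif that recruits phosphatases. In monocytes and neutrophils these receptors are known for the sensing of fungi and mycobacteria and for restraint of inflammation.

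The 9 genes were among the more abundant transcripts of the sorted cells. All 9 had a mean of at least 1000, a level reached by 18.6% of the listed genes. Their median mean lay above 96.2% of all listed genes. Per kb, the middle gene of the 9, Clec4e, lay above 97.2% of genes. Together they made up 0.191% of the summed mean. Per kb, their median level was 4257, against 29.4 for all genes with a length, a ratio of 145 that fell to as little as 42.4 with other definitions of length.

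Clec7a, which encodes the beta-glucan receptor Dectin-1, had the highest level, both by the mean and per kb. With the union of all exons or the longest transcript as the length, Clec4d stood above it. Clec7a had a mean of 10873, above 98.5% of listed genes, and a level of 7287 per kb. It signals through a tyrosine motif in its own tail, and it accounted for 19.4% of the summed level per kb of the 9 genes. GENCODE types this gene as a polymorphic pseudogene, a class for genes with a coding sequence that is disrupted in some strains, although it lists protein-coding transcripts for it.

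The adaptor-dependent activating receptors were Clec4d, Clec4e, Clec4n and Clec5a. Clec5a, or MDL-1, which pairs with the adaptor DAP12 encoded by Tyrobp, had a mean of 5455 and 6357 per kb. Clec4d, or MCL, had a mean of 7671 and 5799 per kb. Clec4e, or Mincle, a receptor for mycobacterial cord factor that MCL partners with, had a mean of 6912 and 4257 per kb. The genes of these partners lie side by side, and the Clec4d level per kb was 1.36 times that of Clec4e, with a range of 1.08 to 4.03 over the definitions of length. Clec4n, or Dectin-2, which binds fungal mannans and signals through the FcRγ chain encoded by Fcer1g, had a mean of 3258 and 2863 per kb. These 4 genes accounted for 51.2% of the summed level per kb of the 9, and for 50.4% to 53.1% over the definitions of length.

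Clec4a2 and Clec12a encode the inhibitory receptors DCIR and MICL. Clec4a2 had a mean of 4368 and 4758 per kb. Clec12a, a receptor for uric acid crystals and dead cells, had a mean of 6348 and 3823 per kb. Together they accounted for 22.8% of the summed level per kb, and for as little as 13.9% where the union of all exons was taken as the length.

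Clec4a1 and Clec4a3 are close relatives of Clec4a2. Clec4a3 had a mean of 1808 and 1552 per kb. Clec4a1 had the lowest level, with a mean of 1459, above 85.8% of listed genes, and 936 per kb. These genes accounted for 6.61% of the summed level per kb, and for up to 12.1% with other lengths. The Clec4a2 level per kb was 5.08 times that of Clec4a1 and 3.07 times that of Clec4a3, ratios that fell to 1.59 and 1.10 with the union of all exons.

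From the highest to the lowest level per kb, the order was Clec7a, Clec5a, Clec4d, Clec4a2, Clec4e, Clec12a, Clec4n, Clec4a3 and Clec4a1. The steps between neighbours in this order were small, from 1.10 times between Clec5a and Clec4d to 1.84 times between Clec4n and Clec4a3, whereas the ends, Clec7a and Clec4a1, were 7.78 times apart, or 4.40 times with the union of all exons and 5.10 times with the longest transcript, where Clec7a was not the highest. With at least 1 of the 3 other lengths, 4 of the 8 pairs of neighbours changed places, and Clec5a fell below Clec4d with all 3, to between 0.251 and 0.820 times its level. Over 5 orders, made with 4 definitions of length and with none, Clec4a1 was lowest in 5 and Clec4a3 stood at place 7 or 8. Clec7a was first in 3 orders, and Clec4d was first in the 2 made with the union of all exons and with the longest transcript. Other genes also changed places. Clec4e and Clec4n stood between places 3 and 7, Clec4a2 between 4 and 6, Clec12a between 4 and 8, and Clec5a, whose level per kb was 1420 with the union of all exons, between 2 and 6.

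**Figure D1:**
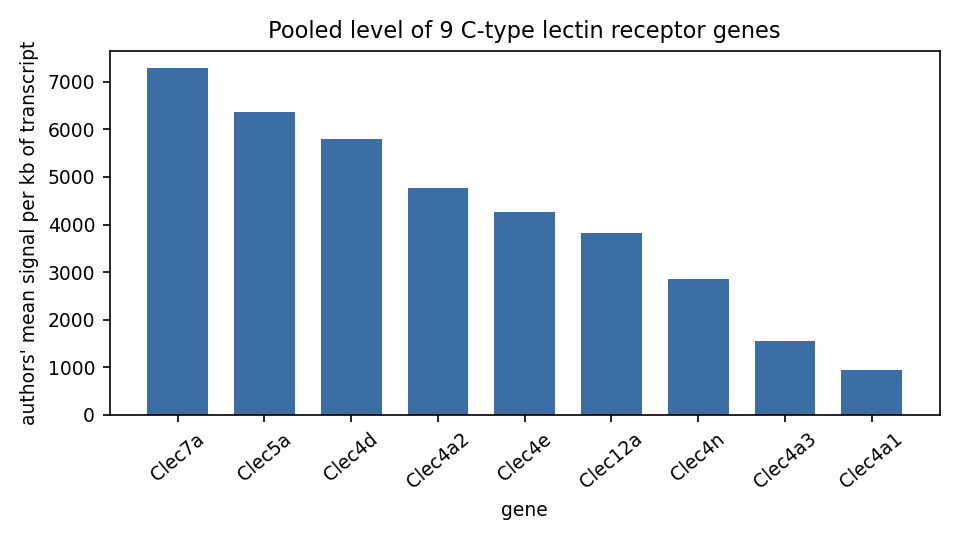
Bars give the authors' pooled mean signal of each of the 9 genes divided by transcript length in kb, on a linear axis from 0, with no error bars because the mean is pooled over libraries. Levels ran from 7287 for Clec7a to 936 for Clec4a1.

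The genes through which these receptors signal were next considered. All 22 genes of the adaptor, kinase, CARD9 and phosphatase lists were in the table with a mean of at least 10, against 62.0% of all listed genes, and 20 had a mean of at least 1000. The exceptions were the kinase Src, at 92.2, and the adaptor Hcst, or DAP10, at 738. The ITAM adaptors Tyrobp and Fcer1g stood above each of the 9 receptors. Tyrobp was at 53853 per kb, 8.47 times Clec5a, and this ratio reached 36.0 with the longest transcript as the length. Fcer1g was at 17483 per kb, 1.35 times the sum of Clec4d, Clec4e and Clec4n, with a range of 1.35 to 1.82 over the definitions of length. Both adaptors also serve Fc receptors and other activating receptors of myeloid cells, so these ratios do not give the share of adaptor that is open to the lectins. Against all 9 receptors summed, Fcer1g was at 0.465 times and Tyrobp at 1.43 times, with ranges of 0.465 to 0.795 and 1.06 to 2.47 over the definitions of length.

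Among the kinases, Syk was at 4392 per kb, against a median of 4257 for the 9 receptors. The SRC family kinases Fgr and Lyn were at 6512 and 3567 per kb, and Src was at 24.2. Within the list of 12 genes around Syk and Card9, the highest was Prkcd, the kinase that activates Card9, at 5600 per kb, and the lowest was Vav3, a guanine nucleotide exchange factor, at 468. Among the phosphatases, Ptpn6, or SHP-1, which binds the inhibitory motif, was at 16056 per kb. The lipid phosphatase Inpp5d, or SHIP-1, was at 2122, and Ptpn11, or SHP-2, was at 493. The Ptpn6 level was 32.5 times that of Ptpn11, or 6.43 times with coding length.

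Other genes of the C-type lectin superfamily were less abundant on the whole. Of the 26 listed, 23 had a mean of at least 10, and their median level was 109 per kb, so that the median of the 9 receptors was 39.0 times higher, with a range of 34.6 to 68.2 over the definitions of length. The 3 with a mean under 10 were Clec4f, a Kupffer cell receptor, at 0.943, Clec4g, a receptor of sinusoidal endothelium, at 3.35, and Clec14a, an endothelial receptor, at 2.07.

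All 9 genes lie on chromosome 6 (GRCm38, GENCODE M21), in 3 places. Clec5a stands alone at chr6:40574894-40585821 on the minus strand, between the olfactory receptor gene Olfr460, with a mean of 5.45, and the taste receptor gene Tas2r138, which was not listed. A span of 368023 bases at chr6:122921848-123289870 holds 6 of the 9, in the order Clec4a1, Clec4a3, Clec4a2, Clec4n, Clec4d and Clec4e, of which Clec4e is on the minus strand and the other 5 on the plus strand. The span also holds 3 other protein-coding genes. Of these, Clec4a4 was at 21.3 per kb, Clec4b1 at 281 and Clec4b2 at 36.3. A span of 130089 bases at chr6:129342691-129472779 starts with Clec12a on the plus strand and ends with Clec7a on the minus strand.

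Between Clec12a and Clec7a lie Clec12b at 9.38 per kb, Clec1b, a receptor of platelets and some myeloid cells, at 649, Clec9a, a dendritic cell receptor of dead cells, at 101, and Clec1a at 14.3. All 7 genes that lie between the receptors in these spans were thus at or under 649 per kb, and the lowest of the 9, Clec4a1, was at 1.44 times the highest of them, or up to 3.67 times with other lengths. Of the genes next outside the spans, Necap1 was at 313 per kb and 4922502D21Rik at 1.64, while Vmn2r19 was not listed. Olr1, a receptor for oxidised lipoprotein that also lies next outside, was at 927 per kb, about the level of Clec4a1. Without division by length, the Olr1 mean was 434, against 1459 for Clec4a1.

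**Figure D2:**
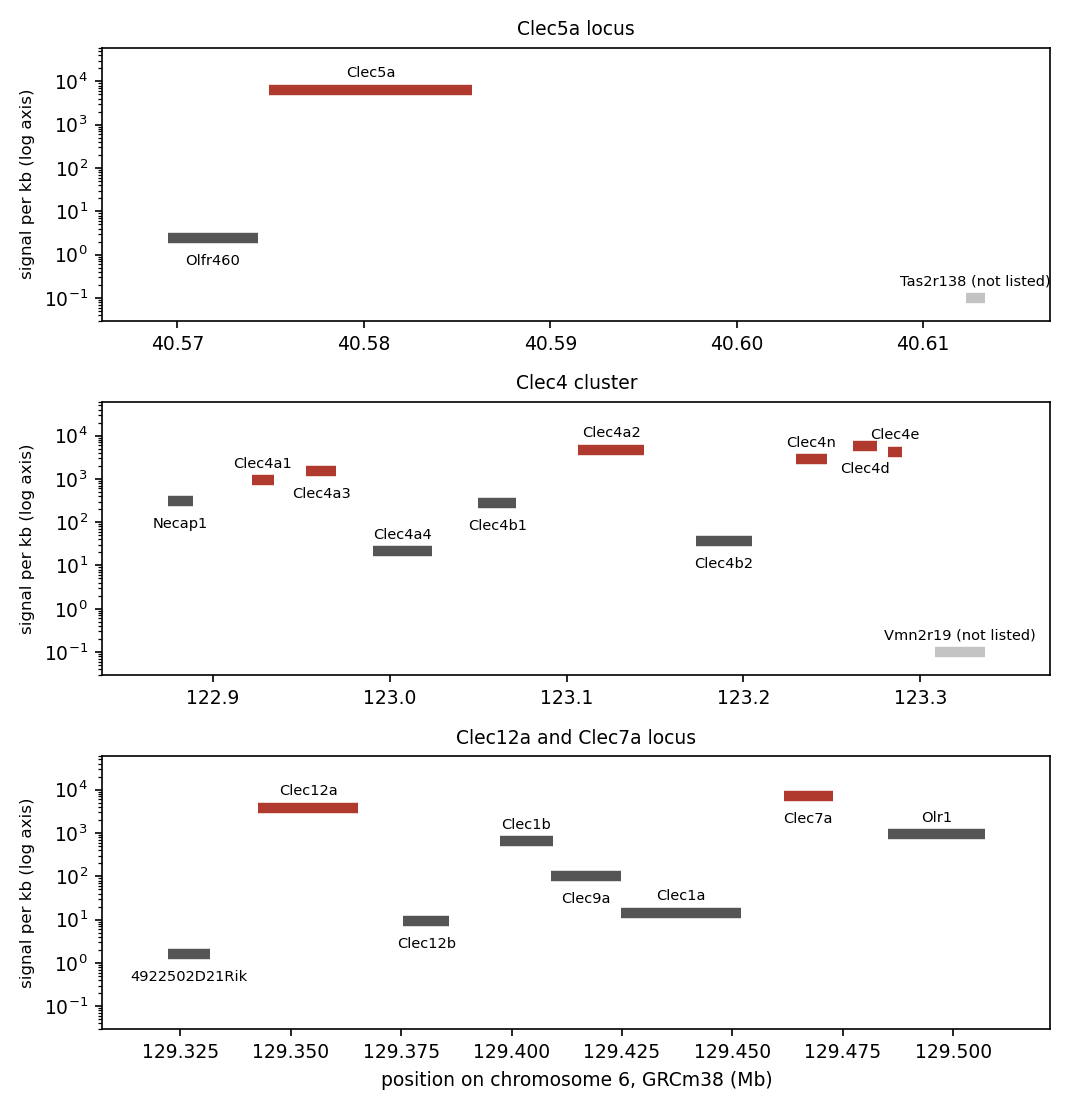
Genes are drawn as bars along chromosome 6 (GRCm38, in Mb), at the height of their pooled mean signal per kb on a log axis, with the 9 receptors in red, other protein-coding genes in dark grey and genes that were not listed in pale grey at a fixed height with no value. All red bars stand at 936 or above, and the highest grey bar inside a span is Clec1b at 649.

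Near-identical relatives can share reads, so the sequences of the genes were compared. Over the coding sequences, the 36 pairs of the 9 genes had a median identity of 64.9%. The 3 pairs among Clec4a1, Clec4a2 and Clec4a3 were at 73.5% to 78.3%, with no identical run over 34 bases. The other 33 pairs were at 59.1% to 69.9%, with no run over 18 bases. The nearest relatives of Clec4a2 were not among the 9. They were Clec4b1, the gene before it on the chromosome, at 88.4%, and Clec4a4, the gene before that, at 86.6%. Clec4b2, the gene after it, was at 77.2%.

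Stretches of 50 bases of the transcripts that also occur in another gene were then counted. In Clec4a2, 6.83% of such stretches did, most of them in Clec4a4 and Clec4b1. In Clec4n the share was 0.686%, in Clec12a it was 0.457%, and in the other 6 genes it was 0. With stretches of 100 bases, only Clec4a2 had any, at 2.14%, all of them in Clec4a4. At 50 bases, 3.85% of the Clec4a2 stretches occurred in Clec4a4 and 2.30% in Clec4b1, whose means were 16.5 and 200. The division of signal between Clec4a2 and each of these genes is therefore uncertain, since a read from a shared stretch has to be divided between them. The Clec4a2 level per kb was 223 times that of Clec4a4, or 70.1 times with the union of all exons. No exon of the 9 genes overlapped an exon of another gene.

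The longest stretch of coding sequence common to Clec4a2 and Clec4a4 is printed to show where their reads cannot be told apart. It is 163 bases long, covers coding bases 75 to 237 of both genes and spans exons 1 to 3. It lies within chr6:123123662-123127989 in Clec4a2 and within chr6:122990441-123004046 in Clec4a4, both on the plus strand of GRCm38, and the sequence is that of the spliced GENCODE transcripts.
Clec4a2 and Clec4a4: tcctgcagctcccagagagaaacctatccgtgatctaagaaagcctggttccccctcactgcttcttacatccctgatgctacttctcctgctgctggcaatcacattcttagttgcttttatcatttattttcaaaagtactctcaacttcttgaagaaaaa

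In these type II membrane proteins the inner tail comes first, and tyrosine motifs were looked for in the first 30 codons. The immunoreceptor tyrosine-based inhibitory motif was found in 2 of the 9, Clec4a2 and Clec12a, and in 3.17% of the 15682 listed genes with a complete coding sequence. A shorter motif, of a tyrosine followed by any 2 residues and a leucine, was found in Clec7a and Clec12a, and in 5.13% of those genes. In Clec12a it lies within the inhibitory motif. The window was set after a window of 60 codons had also matched in 2 further genes, Clec4a3 and Clec4n, beyond codon 30.

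The first coding bases of the 3 Clec4a genes, of Clec4a4 and of Clec12a are printed to show this difference between receptors of like sequence, with the bases of the inhibitory motif in capitals. The motif takes codons 5 to 10 in all 3 genes that hold it, and its bases are the same in Clec4a2 and Clec4a4. The sequences come from the plus strand of GRCm38, at chr6:122921974-122922009 in exon 1 for Clec4a1, chr6:123123588-123123623 in exon 1 for Clec4a2, chr6:122952868-122952903 in exon 2 for Clec4a3, chr6:122990367-122990402 in exon 1 for Clec4a4 and chr6:129350421-129350456 in exon 1 for Clec12a.
Clec4a1: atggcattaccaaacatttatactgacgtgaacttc
Clec4a2: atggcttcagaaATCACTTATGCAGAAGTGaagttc
Clec4a3: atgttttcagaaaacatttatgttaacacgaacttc
Clec4a4: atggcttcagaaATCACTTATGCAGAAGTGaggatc
Clec12a: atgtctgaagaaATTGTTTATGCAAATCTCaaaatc

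The receptors with the inhibitory motif in the first 30 codons, Clec4a2 and Clec12a, were at 4758 and 3823 per kb. Clec4a1 and Clec4a3, without it, were at 936 and 1552. The other receptors without it did not all stand lower. Clec7a at 7287, Clec5a at 6357 and Clec4d at 5799 were above both, Clec4e at 4257 was between them, and Clec4n was at 2863. The contrast with Clec4a1 and Clec4a3 did not hold for every length. With the union of all exons, Clec12a was at 1148, below Clec4a3 at 1362, and Clec4a2 was at 1493. Clec4a4 holds the same motif bases as Clec4a2 and was at 21.3 per kb. Whether the motif bears on the level of a gene was not tested.

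Markers of the sorted cells, and of other cells of the spleen, were read from the same pooled mean. Levels per kb were scaled so that all genes summed to 1000000, and the part of these cells in the levels of the receptors was not tested. All 10 mature neutrophil markers had a mean of at least 10 and summed to 132165, of which S100a9 gave 72118 and S100a8 gave 43577. This sum reached 216826 with the union of all exons. All 10 monocyte markers did as well and summed to 2655, of which Ly6c2 gave 1158, with Cx3cr1 the lowest at 188 per kb. Another 663 came from Itgam, which encodes CD11b and by which both subsets were sorted. The defining genes of the subsets were both present, Ly6c2 at 22591 and Ly6g at 12300 per kb, a ratio of 1.84 that turned to 0.631 with the union of all exons and 0.644 with the longest transcript. By comparison, the 9 receptors summed to 1928.

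Markers of other cells of the spleen were also present. The 10 macrophage markers summed to 7108, of which Slc40a1 gave 3792, with Mertk the lowest at 620 per kb. Without Slc40a1 they summed to 3316, and with coding length all 10 summed to 4149. The 10 B cell markers summed to 1067, led by Pax5, and the 10 T and NK cell markers to 148, led by Cd3g. Macrophages and some dendritic cells also carry these lectin receptors. The 9 dendritic cell markers summed to 93.6, of which Itgax gave 50.7, with Xcr1 the lowest at 3.77 per kb. The 9 erythroid and platelet markers summed to 1216, of which Hbb-bs gave 849.6 and Hba-a1 gave 342. S100a8, Itgam and Hba-a1 are named after their values were seen. Each marker in these lists had a mean of at least 10, as did 62.0% of all listed genes, so no list had a defining gene at 0. Xcr1 was close to this limit, with a mean of 16.8. A pooled mean does not show in how many libraries a marker was present.

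Lmna, the targeted gene, had a mean of 79.5, above 53.8% of listed genes, and 44.7 per kb. As this mean pools the genotypes, it does not check the deletion.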

How the data were processed

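RNA of 2 sorted myeloid subsets of wt and LmnaMyeKO mice was sequenced, in 4 groups of 2 samples. Per the labels and the study's methods, the authors used Cutadapt 1.14 for trimming, STAR 2.5.2b for alignment to mm10, and for quantification RSEM 1.3.0 with GENCODE M12, and compared groups with DESeq2 1.20.0. FastQC 0.11.5 and Picard 1.119 are also named in the submitters' processing notes. The deposited table gives a mean signal per gene, made by the authors from counts divided by size factors and averaged over libraries that are not named. Its other 6 numeric columns hold the authors' own comparison of genotypes (the log2 fold change, its standard error, the test statistic, the p-value, the adjusted p-value and a signed fold change) and were not used.

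A count test between genotypes was planned for the case of values per sample and was not run. The study's methods give read numbers as a range over samples, not by sample, and a pooled mean allows no counting interval. The mean was divided by transcript length from GENCODE M21 (GRCm38, the assembly of mm10), which holds 23004 of the 23084 identifiers. For a symbol in more than 1 row, the row with the highest mean was taken. Genes were named by a rule: all 9 receptors, the adaptors, kinases and phosphatases, of the other lists only the highest, the lowest and genes under a mean of 10, Lmna, and protein-coding genes between or next to the receptors. Some items that this rule names are not reported here. The 9 genes and all lists were chosen with earlier results of these data known.

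The steps behind the low means were first noticed by eye and then searched by code. In all, 3 versions of the rule that selects a set of steps were tried on simulated means. The first recovered none of the simulated sets, the second only some and the last, which was used, all of them. The simulation gave a single library a size factor well above the rest, as the steps in the data imply. It kept only means with reads in at least 2 libraries, which the search also assumes. The recovery therefore covers sets of this kind only and is not an independent check of the number of libraries. All 3 gave the same 8 steps in the data, which adds no support, given that the first 2 failed on simulated means. Coding sequences were aligned globally with Biopython 1.88 (match 2, mismatch -3, gap opening -7, gap extension -2) and identity counted over aligned bases. Each gene's longest complete coding sequence in GENCODE M21 was used. Stretches were matched on both strands. Tail motifs were located by reading codons. Python 3.11.15 and matplotlib 3.10.9 were used.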

Additional observations from a re-analysis of the deposited data

How the results depend on the processing

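The median level of the 9 receptors, 4257 per kb, was 1420 with the union of all exons, 1761 with the longest transcript and 7926 with coding length. Of the 9 places in the order, 2 were kept with the union of all exons, 2 with the longest transcript, 4 with coding length and 4 with no length. These lengths differ by construction in how much untranslated and rarely used sequence they hold. Of 27 levels of single receptors under the 3 other lengths, 18 were outside 1.5 times the value given, 5 with the union, 5 with the longest transcript and 8 with coding length. For 20 shares and ratios the other lengths were added after the data were seen, and 35 of 60 values were outside 1.5 times or fell under 1. This count takes in the ratio of Clec5a to Clec4d with coding length, which fell from 1.10 to 0.820 but stayed within 1.5 times. Of the 20 shares and ratios, 2 ratios that were above 1 fell under 1. That of Ly6c2 to Ly6g was 0.631 with the union and 0.644 with the longest transcript, and that of Clec5a to Clec4d was 0.296 with the union, 0.251 with the longest transcript and 0.820 with coding length. Of the sums of the 9 receptors and the marker lists, tried after the data were seen, 2 of 24 were outside 1.5 times with other lengths, and 5 of 8 without the highest gene of the list. The median percentile of 96.2 was 94.6 among protein-coding genes, 93.9 among genes with a mean of at least 10 and 96.2 with rows of a symbol summed. All 31 receptor and pathway genes passed a minimum mean of 10 or of 1, and 30 passed 100.

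No paired analysis was possible because the mean is pooled over libraries. For the same reason the other normalization, the filter, the replicate block and the omission of each replicate, which were planned for an effect of genotype, were not run.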
